A study of Mus musculus with 6 samples.

Results

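Interferon signalling and interferon-stimulated genes were examined in cancer-associated fibroblasts of mouse mammary tumours. A list of 39 genes was matched by symbol to the deposited expression table, and 38 of them were among its 12235 genes. Xaf1 was not analysed here. The 38 genes were taken by role as 4 receptor chains, 5 STAT and IRF factors, 15 effectors and other stimulated genes, 11 GTPases and 3 sensors of nucleic acid. The list rests on what the genes are known for. Its rule uses no measured value, but members were chosen with earlier results of these data known.

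Both groups came from tumours grown from 100000 4T1 cells, a mammary carcinoma line, placed in the mammary fat pad of female BALB/c mice aged 8 weeks. The labels name the injected line once as 4T1-GFP and once as 4T1-luc. Viable cells lacking Ter119 (erythroid), CD45 (immune) and EpCAM (epithelial) but bearing podoplanin (PDPN+) were sorted by flow cytometry into Ly6C+ and Ly6C− PDPN+ fibroblasts (pCAFs). The groups had 3 Ly6C+ and 3 Ly6C− libraries, all made from the 3′ ends of mRNA. The labels do not say whether the libraries of a group came from separate mice, so the p-values measure the spread between these libraries, which may be technical.

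Type I interferons signal through the receptor chains IFNAR1 and IFNAR2, and interferon gamma through IFNGR1 and IFNGR2. The first route uses JAK1 and TYK2 to assemble a complex with STAT2 and IRF9 that binds the interferon-stimulated response element (ISRE), while the second uses JAK1 and JAK2 to form STAT dimers that bind gamma-activated sites (GAS). Their target genes encode antiviral proteins such as ISG15 and the IFIT family, and guanylate-binding and immunity-related GTPases that act at the membranes around intracellular pathogens. Some Ly6 family genes are themselves known to respond to interferon.

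RefSeq promoter windows (GRCm38.p6, 250 bases before to 50 bases after an annotated start) were found for 28 of the 38 members, 32 windows in all. The members with no window in the table were Usp18, Ifi27, Ifi27l2a, Parp14, Mx1, Mx2, Gbp4, Iigp1, Zbp1 and Dhx58. The ISRE letters, GAAA followed by any 2 bases and GAAA again, searched on both strands, were present in 15 of the 28 members (53.6%), against 3.58% of the 7737 tested genes with a window and 3.99% of all 27025 genes with one. By window the shares were 46.9% of the 32 windows of members and 3.44% of all 32851. The GAS letters TTCNNNGAA, which read the same on both strands, were present in 11 of the 28 members (39.3%), against 8.00% of tested and 9.55% of all genes. The windows of 4 members that were lower in Ly6C+ pCAFs are printed here because each held the ISRE letters, beside that of Ifit1, which held them too and did not pass the test. Sequences run 5′ to 3′ on the strand of the gene, and capitals mark ISRE letters, in Igtp also the GAS letters that lie before them. Matches in Isg15 and Irgm1 overlap each other and form 1 run of capitals.
Isg15 (chr4:156200769-156201068, minus strand): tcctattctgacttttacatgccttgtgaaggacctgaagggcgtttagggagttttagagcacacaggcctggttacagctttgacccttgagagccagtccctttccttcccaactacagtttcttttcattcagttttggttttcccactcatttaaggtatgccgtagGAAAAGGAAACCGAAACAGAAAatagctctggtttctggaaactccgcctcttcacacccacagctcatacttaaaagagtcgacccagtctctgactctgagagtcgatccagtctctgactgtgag
Ifit3 (chr19:34583279-34583578, plus strand): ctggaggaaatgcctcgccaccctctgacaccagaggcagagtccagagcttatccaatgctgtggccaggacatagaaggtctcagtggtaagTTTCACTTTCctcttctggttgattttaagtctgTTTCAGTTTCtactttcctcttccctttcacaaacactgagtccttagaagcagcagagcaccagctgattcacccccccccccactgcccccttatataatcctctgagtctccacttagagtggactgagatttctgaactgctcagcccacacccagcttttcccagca
Igtp (chr11:58199306-58199605, plus strand): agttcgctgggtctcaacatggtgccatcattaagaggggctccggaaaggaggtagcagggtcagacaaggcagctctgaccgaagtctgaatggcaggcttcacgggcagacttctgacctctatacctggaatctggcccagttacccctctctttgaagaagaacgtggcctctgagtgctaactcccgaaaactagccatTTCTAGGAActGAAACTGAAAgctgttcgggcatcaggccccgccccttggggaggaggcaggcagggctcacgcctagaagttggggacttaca
Irgm1 (chr11:48871371-48871670, minus strand): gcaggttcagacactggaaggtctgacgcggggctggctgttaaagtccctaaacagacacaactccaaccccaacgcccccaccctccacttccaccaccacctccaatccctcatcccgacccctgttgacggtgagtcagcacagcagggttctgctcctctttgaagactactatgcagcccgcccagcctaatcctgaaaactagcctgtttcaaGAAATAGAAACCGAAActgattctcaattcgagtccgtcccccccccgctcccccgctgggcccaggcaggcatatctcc
Ifit1 (chr19:34640639-34640938, plus strand): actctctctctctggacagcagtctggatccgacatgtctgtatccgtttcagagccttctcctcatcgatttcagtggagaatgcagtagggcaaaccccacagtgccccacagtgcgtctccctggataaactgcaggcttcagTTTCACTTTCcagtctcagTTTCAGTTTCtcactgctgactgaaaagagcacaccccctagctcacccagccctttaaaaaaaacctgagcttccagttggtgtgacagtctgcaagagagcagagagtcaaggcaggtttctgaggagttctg
All 4 of these lower members held ISRE letters, as did 8 of the 20 members with a window that did not pass and all 3 that were not tested. Ifngr1, the only member with a window that was higher in Ly6C+ pCAFs, held neither motif. ISRE letters were found in 6 of 7 GTPases, 6 of 11 effectors and none of the 4 receptors with a window. A match is a description of the letters in the window and was not tested as a binding site.

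**Figure D1:**
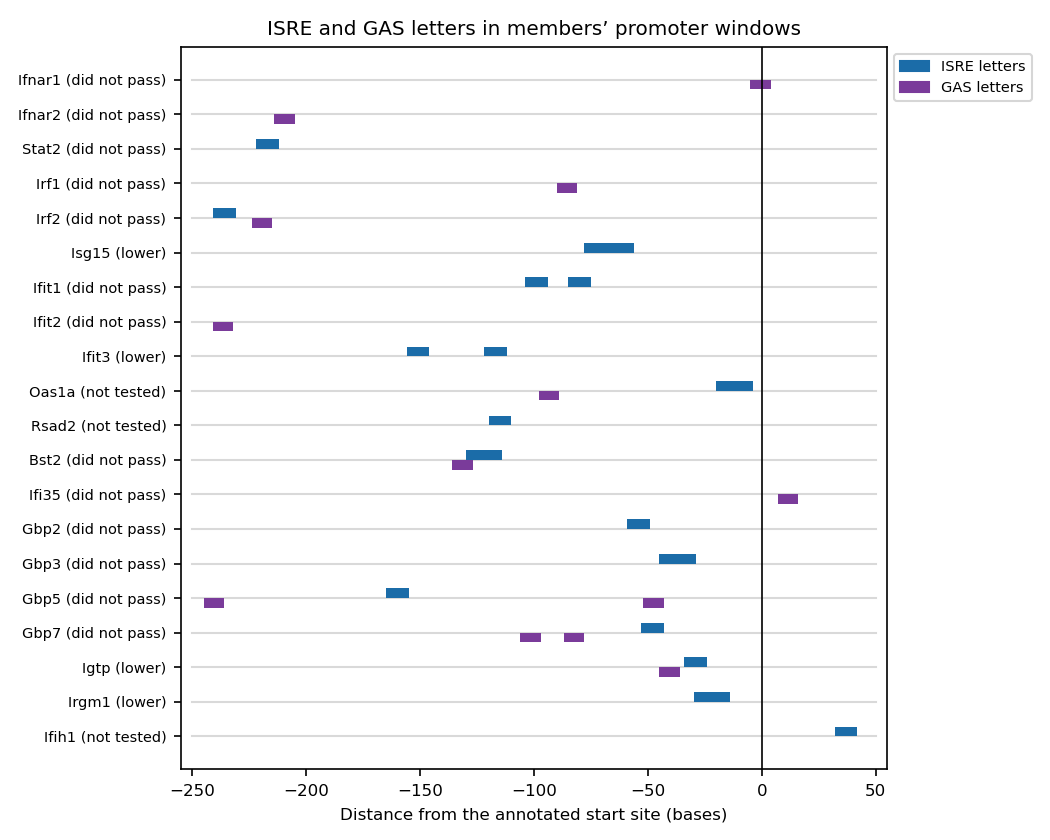
Positions of ISRE letters (blue) and GAS letters (purple) in the promoter windows of members that hold either, as distance in bases from the annotated start site at 0, with each gene's test result in brackets. Igtp and Irgm1 hold ISRE letters within 40 bases before the start, and Isg15 holds 3 overlapping matches.

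The table holds normalised counts, which are read counts divided by 1 size factor per library. The Ly6C+ libraries held 2150531 to 2818269 reads and the Ly6C− libraries 1176909 to 1721480, of which 4899 to 11017 per library fell on the 38 members. Ly6c1, the gene of the sorted marker, stood at 2316 to 3849 in Ly6C+ and at 65.6 to 88.6 in Ly6C− libraries, and its difference is no finding. Of 8 fibroblast markers, all present, 5 were higher in Ly6C+ pCAFs and none lower, and Col1a1 stood at 5716 or more in every library. The test was limma on log2(normalised count + 1) over the 9646 genes with a mean of at least 5, with an adjusted p under 0.05 (Benjamini-Hochberg over all 9646). Each fold divides one group mean by the other, and log2 fold changes are Ly6C+ minus Ly6C− on the log2(value + 1) scale, which understates the change of low genes.

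Most interferon genes did not pass the test, and those that did went both ways. Of the 38 members 35 had a mean of at least 5 and were tested, and of these 2 were higher, 4 were lower and 29 did not pass in Ly6C+ against Ly6C− pCAFs. The 6 calls are 17.1% of the members tested, and over all genes tested 17.1% were called. By direction, 5.71% of members were higher, against 9.41% of all genes, and 11.4% were lower, against 7.66% of all genes. The members that rose were Ifi27l2a and Ifngr1, and those that fell were Isg15, Ifit3, Igtp and Irgm1. The median log2 fold change was −0.21 over the tested members and 0.00 over all tested genes, and 24 members (68.6%) were below 0, against 50.1% of all genes. In bulk samples a lower share of cells that use a gene and less of its RNA per cell cannot be told apart. Of the tested members 10 (28.6%) had no overlap between the groups, against 33.1% of all tested genes. The 3 members under the filter were Rsad2, Oas1a and Ifih1. Without Ly6C+ replicate 1 or without Ly6C− replicate 2 there were 3 calls, 1 higher and 2 lower, and without Ly6C+ replicate 2 or 3 there was 1 higher beside 4 and 3 lower.

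**Figure D2:**
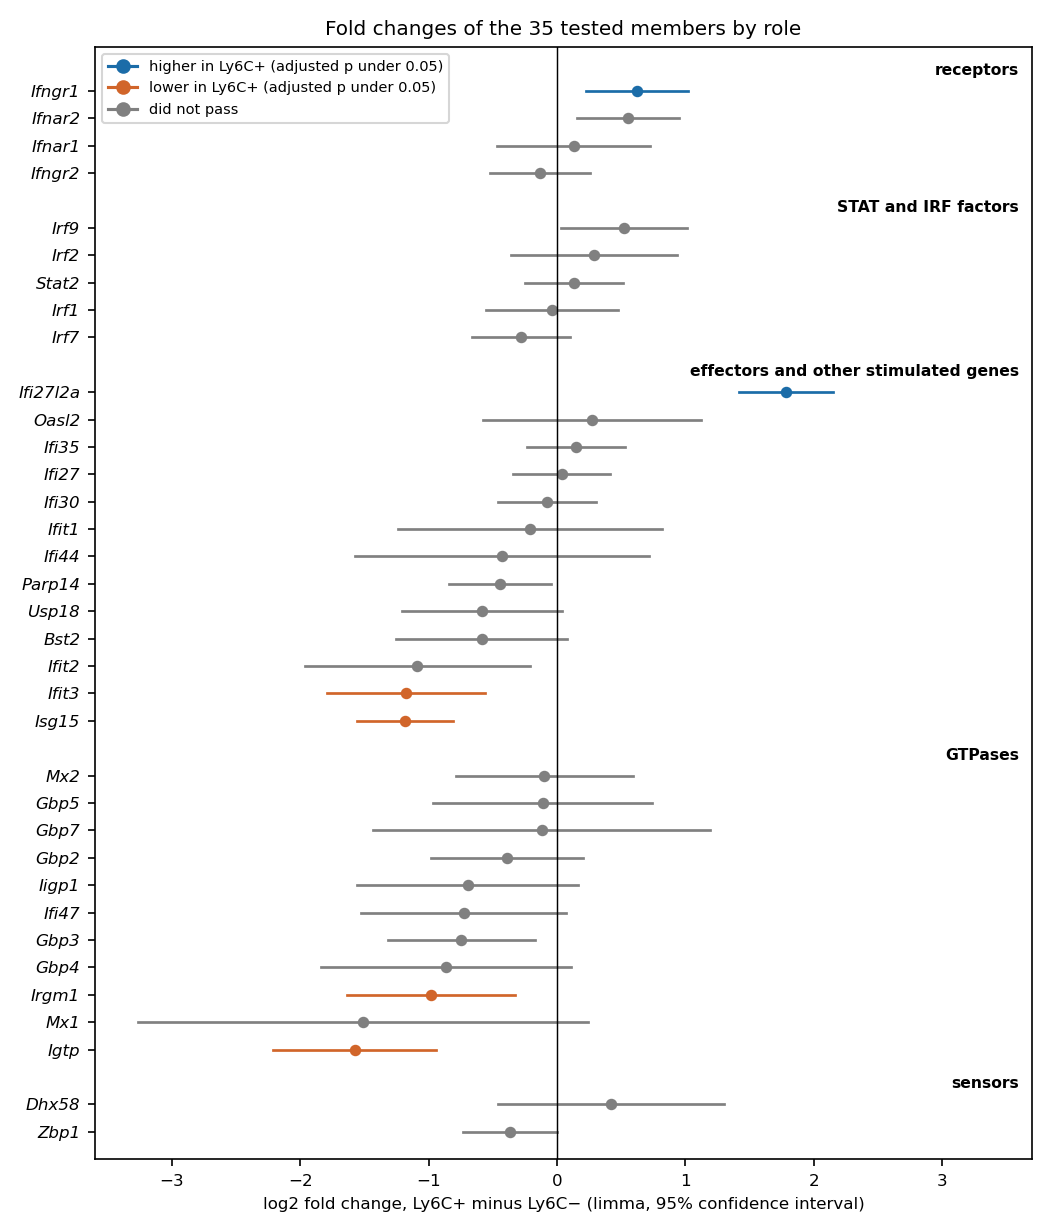
Log2 fold changes of the 35 tested members, Ly6C+ minus Ly6C−, with limma 95% confidence intervals, grouped by role and ordered by size. Blue members were higher (2), orange members lower (4) in Ly6C+ pCAFs and grey members did not pass (29). All 11 GTPases lie below 0 (9 of 11 after thinning to equal reads), against 50.1% of all tested genes, and 2 of them passed the test.

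Of the receptor genes, only the ligand-binding chain of the interferon gamma receptor passed. Ifngr1 (chromosome 10, 19591949 to 19610229, plus strand, mm10) had 121, 118 and 133 normalised counts in Ly6C+ libraries and 69.9, 86.8 and 85.2 in Ly6C− libraries. Every Ly6C+ value was above every Ly6C− value, as for 17.1% of all tested genes. The difference was 1.54-fold (log2 fold change 0.62, SE 0.18, adjusted p = 0.0364 by limma). This call ended in 9 of 20 alternative settings, among them the omission of any library other than Ly6C− replicate 3 (adjusted p = 0.0818 to 0.113).

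Ifnar2, which with Ifnar1 forms the type I receptor, had 312, 342 and 276 normalised counts in Ly6C+ libraries, against 251, 179 and 206 in Ly6C− libraries. The groups did not overlap either, but the 1.46-fold difference did not pass (log2 fold change 0.55, SE 0.18, adjusted p = 0.0591 by limma), with adjusted p between 0.0314 and 0.237 over the alternatives. Ifnar1 had 22.0, 29.3 and 26.3 normalised counts in Ly6C+ libraries and 30.5, 21.3 and 19.7 in Ly6C− libraries. Ifngr2, the signalling chain of the interferon gamma receptor, had 196, 145 and 167 in Ly6C+ libraries and 194, 190 and 170 in Ly6C− libraries. For both the groups overlapped, and the 95% intervals of the log2 difference were −0.46 to 0.72 for Ifnar1 and −0.52 to 0.25 for Ifngr2. Ifnar2, Ifnar1 and Ifngr2 lie in this order on chromosome 16 between 91372783 and 91565623.

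**Figure D3:**
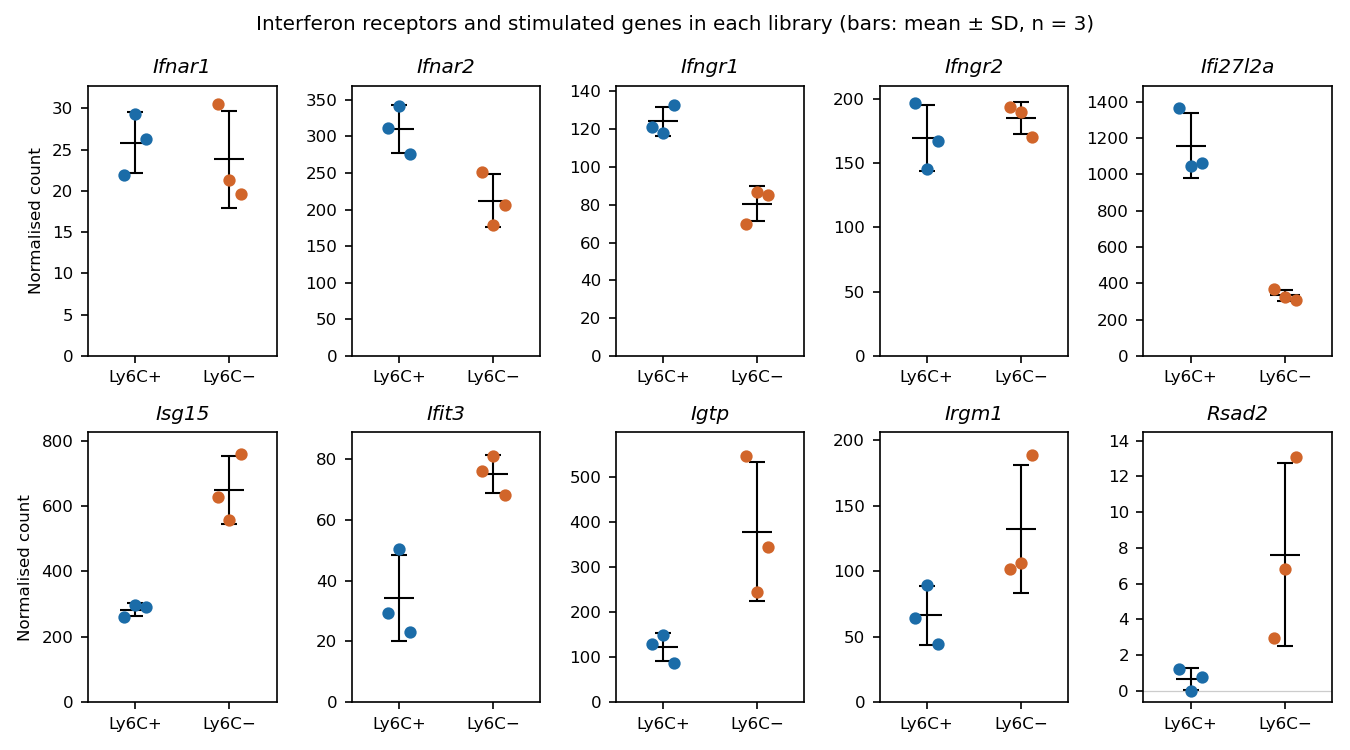
Normalised counts in each library for the 4 receptor genes, the other members that passed the test, and Rsad2, which was under the filter. Points are libraries, Ly6C+ left and Ly6C− right in each panel, with mean ± SD (n = 3). Ifi27l2a is higher in all 3 Ly6C+ libraries, and Isg15, Ifit3, Igtp, Irgm1 and Rsad2 are lower in all 3.

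None of the STAT and IRF members passed. Stat2, a subunit of the ISRE-binding complex, averaged 206 ± 19.5 in Ly6C+ and 188 ± 24.9 in Ly6C− pCAFs (SD, n = 3 each). Irf9, its DNA-binding subunit, averaged 195 ± 43.1 in Ly6C+ and 135 ± 29.4 in Ly6C− pCAFs, a log2 fold change of 0.52 (SE 0.22; limma adjusted p = 0.147). Irf7, which drives type I interferon genes, averaged 412 ± 78.3 in Ly6C+ and 497 ± 26.2 in Ly6C− pCAFs. Irf1, an activator induced by interferon gamma, had 953, 634 and 557 normalised counts in Ly6C+ libraries and 939, 618 and 631 in Ly6C− libraries, with replicate 1 the highest in each group. Irf2, which competes with IRF1 for its sites, averaged 34.7 ± 8.67 in Ly6C+ and 28.4 ± 7.65 in Ly6C− pCAFs. The log2 fold changes of the 5 factors ran from −0.28 to 0.52, and their groups overlapped in every case.

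Effectors went in both directions. Of 13 tested, 1 was higher, 2 were lower and 10 did not pass (23.1% called, against 17.1% of all genes). Ifi27l2a, a small interferon-induced membrane protein of the ISG12 family, had 1363, 1046 and 1063 normalised counts in Ly6C+ libraries, against 369, 322 and 311 in Ly6C− libraries. Every Ly6C+ library was above every Ly6C− library, and the difference was 3.47-fold (log2 fold change 1.78, SE 0.17, adjusted p = 3.24e-05 by limma). It passed in all 20 alternative settings (log2 fold change 1.59 to 1.86). Its neighbour and relative Ifi27 ends 1927 bases away on chromosome 12 (103434211 to 103440239, plus strand, beside Ifi27l2a at 103442167 to 103443680, minus strand). Ifi27 had 729, 910 and 831 normalised counts in Ly6C+ libraries and 685, 932 and 798 in Ly6C− libraries, which overlapped (log2 fold change 0.04, 95% interval −0.34 to 0.42).

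Isg15, a ubiquitin-like modifier that is conjugated to proteins during antiviral responses, was lower in Ly6C+ pCAFs. It had 260, 298 and 291 normalised counts in Ly6C+ libraries, against 628, 558 and 760 in Ly6C− libraries, so that the highest Ly6C+ value was below the lowest Ly6C− value. The mean was 2.29-fold higher in Ly6C− pCAFs (log2 fold change −1.18, SE 0.17, adjusted p = 0.000557 by limma), and the call held in all 20 alternative settings. Isg15 lies on chromosome 4 (156199424 to 156200818, minus strand), and its window above holds 3 overlapping ISRE matches. Usp18, the protease that removes ISG15 from proteins and dampens signalling at IFNAR2, had 32.3, 25.6 and 24.7 normalised counts in Ly6C+ libraries and 60.0, 39.1 and 30.2 in Ly6C− libraries. Its groups overlapped and it did not pass (log2 fold change −0.58, SE 0.28, adjusted p = 0.207 by limma).

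The IFIT genes encode proteins that bind foreign RNA ends and block translation, and they lie together on chromosome 19 between 34550694 and 34650009. Ifit3 had 29.3, 50.4 and 23.2 normalised counts in Ly6C+ libraries, against 75.8, 80.8 and 68.2 in Ly6C− libraries, with no overlap. It was lower in Ly6C+ pCAFs, 2.19-fold higher in Ly6C− pCAFs (log2 fold change −1.18, SE 0.28, adjusted p = 0.0130 by limma), and lost its call without Ly6C+ replicate 1 or without Ly6C− replicate 2 (adjusted p = 0.0608 and 0.0618). Its near-identical neighbour Ifit3b, no member of the list and named after its values were seen, was also lower, at 8.76 ± 3.53 in Ly6C+ against 27.9 ± 8.46 in Ly6C− pCAFs (limma adjusted p = 0.0112, or 0.0514 without Ly6C+ replicate 1). Reads of this pair may be divided uncertainly between them.

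Ifit2 had 7.32, 11.3 and 13.9 normalised counts in Ly6C+ libraries, against 14.8, 21.3 and 40.6 in Ly6C− libraries. The groups did not overlap, yet the log2 fold change of −1.09 (SE 0.40) did not pass (limma adjusted p = 0.0919). Ifit1 had 23.2, 32.3 and 28.6 in Ly6C+ libraries, inside the Ly6C− range of 12.8, 40.0 and 64.2 (log2 fold change −0.21, 95% interval −1.24 to 0.82). The 4 neighbouring genes thus stood at log2 fold changes from −0.21 for Ifit1 to −1.58 for Ifit3b, and Ifit1 and Ifit2 did not pass.

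Rsad2, which encodes the antiviral enzyme viperin, was near the floor. It had 1.22, 0 and 0.773 normalised counts in Ly6C+ libraries, from 3 reads in all, against 2.95, 6.81 and 13.1 in Ly6C− libraries, from 21 reads. The ratio of Ly6C− to Ly6C+, summed reads over summed size factors, was 10.1, with an exact 95% counting interval of 3.02 to 52.9 that covers counting error only. Its mean was under the filter. In the fit with no filter it was lower in Ly6C+ pCAFs (log2 fold change −2.26, SE 0.56, adjusted p = 0.0177 by limma).

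The other effectors did not pass. Bst2, the gene of tetherin, which holds budding viruses at the cell surface, had 317, 275 and 168 normalised counts in Ly6C+ libraries and 542, 241 and 383 in Ly6C− libraries, overlapping between the groups (log2 fold change −0.59, SE 0.30, adjusted p = 0.236 by limma). Parp14, a mono-ADP-ribosyltransferase, had 64.7, 63.9 and 59.5 in Ly6C+ libraries and 92.5, 83.4 and 81.3 in Ly6C− libraries, without overlap but at a log2 fold change of only −0.44 (SE 0.18; limma adjusted p = 0.131). Ifi44 averaged 9.01 ± 3.88 in Ly6C+ and 13.9 ± 10.7 in Ly6C− pCAFs, with Ly6C− replicate 3 the highest at 26.2. Ifi30, a lysosomal thiol reductase, and Ifi35 had log2 fold changes of −0.08 and 0.15. Oasl2, of the oligoadenylate synthetase family, had 79.9, 84.2 and 29.4 in Ly6C+ libraries and 37.4, 42.5 and 69.5 in Ly6C− libraries. Oas1a, an oligoadenylate synthetase under the filter, averaged 5.93 ± 1.40 in Ly6C+ and 3.63 ± 1.79 in Ly6C− pCAFs, from 25 and 10 reads.

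The interferon-inducible GTPases held 2 of the 4 lower members. These calls were 18.2% of the 11, against 17.1% of all genes called in either direction and 7.66% called lower. The other 9 did not pass and none was higher. All 11 log2 fold changes were below 0, against 50.1% of all genes, with a median of −0.73. They were also below 0 with quantile normalization, recomputed size factors and library totals, at medians of −0.73, −0.73 and −0.92. After thinning to equal reads 9 of the 11 were below 0. Without Ly6C+ replicate 3 there were 8, at a median of −0.46, and without Ly6C− replicate 1 there were 9. Without Ly6C− replicates 2 or 3 there were 10, at a median of −0.42 without replicate 3. The 11 signs come from the same libraries and are not independent. Ly6C+ replicate 2 was the highest Ly6C+ library for 10 GTPases and replicate 3 the lowest for 9.

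Igtp, an immunity-related GTPase also called Irgm3, had 131, 150 and 88.1 normalised counts in Ly6C+ libraries, against 547, 245 and 345 in Ly6C− libraries. No Ly6C+ value reached the lowest Ly6C− value, and Ly6C− pCAFs stood 3.09-fold higher (log2 fold change −1.57, SE 0.29, adjusted p = 0.00303 by limma). The call held in all 20 alternative settings. Igtp (chromosome 11, 58199556 to 58207591, plus strand) overlaps the GTPase gene Irgm2 on the same strand, so reads in their shared stretch may be assigned uncertainly. Irgm2, no member of the list, averaged 59.7 ± 15.0 in Ly6C+ and 87.5 ± 17.9 in Ly6C− pCAFs and did not pass (log2 fold change −0.55, adjusted p = 0.156 by limma).

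Irgm1, a regulator of the effector GTPases, had 64.7, 89.4 and 44.8 normalised counts in Ly6C+ libraries, against 101, 106 and 189 in Ly6C− libraries. The groups stood close without overlap, and Ly6C− pCAFs were 1.99-fold higher (log2 fold change −0.98, SE 0.30, adjusted p = 0.0447 by limma). The call ended without Ly6C+ replicates 1 or 3 (adjusted p = 0.122 and 0.146) and without Ly6C− replicates 2 or 3 (0.0739 and 0.114). It also ended with no mean-variance trend (limma adjusted p = 0.109). Iigp1, an effector GTPase that disrupts the vacuole of intracellular parasites, had 54.9, 63.1 and 27.0 in Ly6C+ libraries and 52.2, 57.8 and 135 in Ly6C− libraries, of which only replicate 3 stood above the Ly6C+ range. Ifi47, of the same family, showed a like spread, with 28.1, 53.4 and 39.4 in Ly6C+ libraries and 42.3, 55.3 and 118 in Ly6C− libraries. Neither passed (limma adjusted p = 0.281 and 0.220).

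The guanylate-binding proteins Gbp5, Gbp7, Gbp3 and Gbp2 lie in a row on chromosome 3 between 142493978 and 142638008. Gbp3 had 97.0, 97.7 and 75.7 normalised counts in Ly6C+ libraries, against 231, 130 and 114 in Ly6C− libraries. Its groups did not overlap, but it did not pass (log2 fold change −0.75, SE 0.26, adjusted p = 0.0764 by limma, range 0.0158 to 0.219 over the alternatives). Gbp2 averaged 112 ± 35.7 in Ly6C+ and 147 ± 39.9 in Ly6C− pCAFs, Gbp5 at 14.7 ± 3.99 in Ly6C+ and 16.9 ± 8.18 in Ly6C− pCAFs, and Gbp7 at 6.67 ± 4.73 in Ly6C+ and 7.58 ± 5.97 in Ly6C− pCAFs, all overlapping. Gbp2b, which lies between Gbp3 and Gbp2 and is no member of the list, was lower in Ly6C+ pCAFs, at 70.2 ± 10.2 against 157 ± 56.9 in Ly6C− pCAFs (log2 fold change −1.10, SE 0.25, adjusted p = 0.0107 by limma). Gbp4, on chromosome 5 and overlapped there by Gbp8 and Gbp9 on the same strand, averaged 6.73 ± 3.38 in Ly6C+ and 12.3 ± 3.22 in Ly6C− pCAFs and did not pass. The paralogs are alike in sequence, which may blur their separate values.

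Mx1 and Mx2, dynamin-like GTPases that block virus replication, did not pass. Mx1, which many inbred mouse strains carry in a defective form, had 1.83, 9.77 and 0 normalised counts in Ly6C+ libraries and 3.94, 10.2 and 11.8 in Ly6C− libraries. Mx2 averaged 33.5 ± 7.70 in Ly6C+ and 36.9 ± 12.7 in Ly6C− pCAFs. Among all members that did not pass, 20 lay within 1.5-fold. The 9 beyond it, Ifit2, Usp18, Bst2, Ifi44, Mx1, Ifi47, Gbp3, Gbp4 and Iigp1, all had the higher mean in Ly6C− pCAFs. This split hangs on the cut, as Ifnar2 (1.46-fold) and Irf9 (1.44-fold), both with the higher mean in Ly6C+ pCAFs, lay just within it. Mx1, Gbp4 and Ifi44 had only 16, 29 and 39 reads in Ly6C+ and 25, 35 and 37 in Ly6C− libraries. The share of all genes beyond this cut was not counted.

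The sensors did not pass or were under the filter. Zbp1, which detects Z-form nucleic acid and can trigger cell death, had 384, 310 and 316 normalised counts in Ly6C+ libraries and 480, 382 and 441 in Ly6C− libraries, where the highest Ly6C+ value was just above the lowest Ly6C− value (log2 fold change −0.37, SE 0.17, adjusted p = 0.179 by limma). Dhx58, or LGP2, a regulator of RNA sensing, had 14.6, 23.3 and 15.5 in Ly6C+ libraries and 20.7, 6.81 and 14.4 in Ly6C− libraries, which overlapped. Ifih1, or MDA5, a sensor of double-stranded RNA, averaged 6.27 ± 3.27 in Ly6C+ and 3.30 ± 1.80 in Ly6C− pCAFs, from 26 and 9 reads, and was not tested.

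The library with the highest value differed between members, but not evenly. Of the 38 members, Ly6C+ replicate 2 was the highest Ly6C+ library for 21 and replicate 3 the lowest for 20. In the Ly6C− group replicate 1 was the highest for 17 and replicate 3 for 15. Among the 11 GTPases, Ly6C+ replicate 2 was the highest Ly6C+ library for 10 and replicate 3 the lowest for 9. Among the Ly6C− libraries, replicate 3 was the highest for 6 GTPases and replicate 1 for 5. Replicate 3 held the highest Ly6C− value of Isg15, Ifit1, Ifit2, Rsad2, Ifi44, Ifi47, Irgm1 and Iigp1, and replicate 1 that of Igtp, Gbp2, Gbp3, Gbp5, Bst2 and Usp18. For Ifit1 these Ly6C− libraries stood at 64.2 in replicate 3 and 12.8 in replicate 1, and for Gbp3 at 114 in replicate 3 and 231 in replicate 1. Ly6C− replicate 3 was also the library with the fewest reads, at 1176909. The part of depth in this pattern was not tested.

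**Figure D4:**
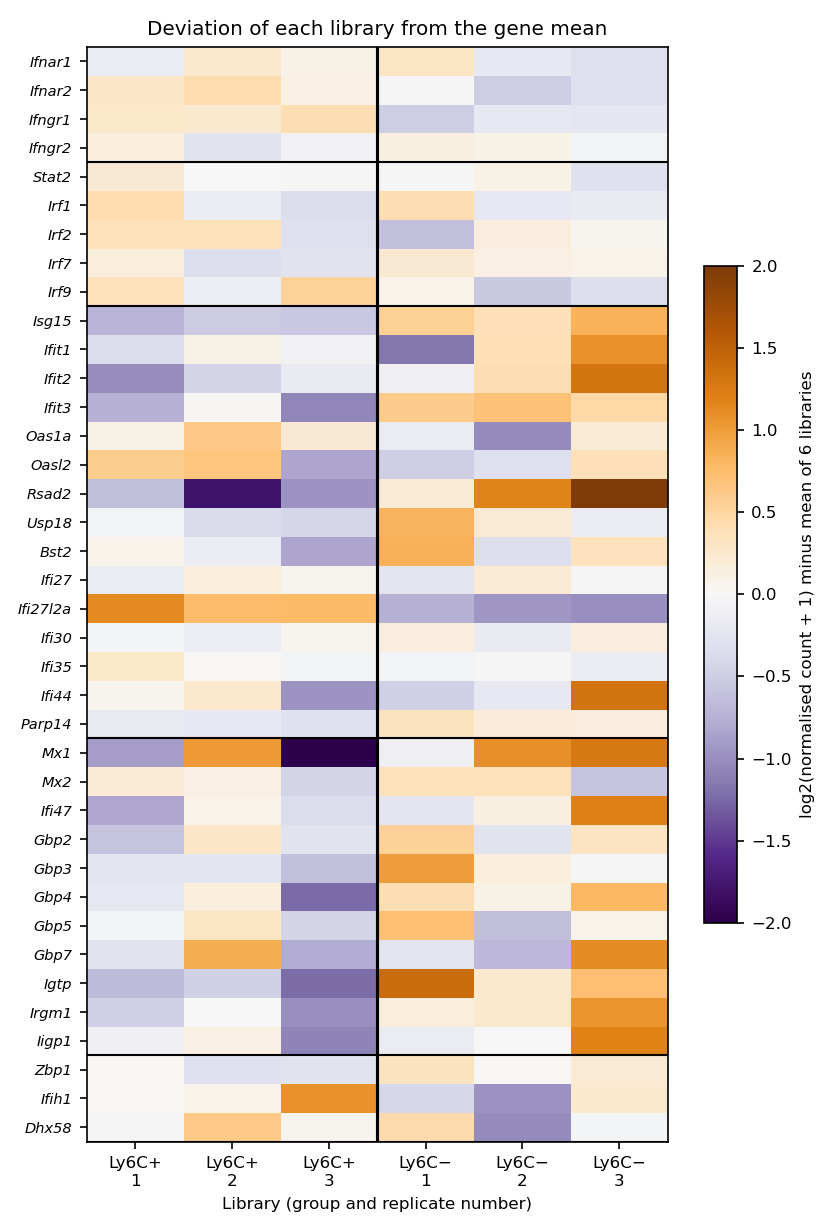
Each row is a member and each column a library, Ly6C+ left and Ly6C− right of the black line. Colour gives log2(normalised count + 1) minus the gene's mean over the 6 libraries, limited to −2 to 2, with lines between the roles. Ifi27l2a and Isg15 are uniform within each group, while Ifit1, Ifi47 and Iigp1 are high in Ly6C− replicate 3 and Gbp3 and Igtp in Ly6C− replicate 1.

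Genes of the pathway outside the list were taken from 7 lists of textbook genes, the ligands among them. Of 145 such genes 102 were in the table and 82 were tested, and of these 8 were higher, 11 were lower and 63 did not pass in Ly6C+ pCAFs (23.2% called, against 17.1% of all genes). None of the 21 interferon ligand genes was analysed here. Of 4 receptor and kinase genes 1 was higher in Ly6C+ pCAFs and none lower (25% called, against 17.1% of all genes). It was Jak1, the kinase shared by both receptors, with 385, 353 and 561 normalised counts in Ly6C+ libraries and 192, 190 and 319 in Ly6C− libraries (log2 fold change 0.90, SE 0.24, adjusted p = 0.0252 by limma). This call ended without Ly6C+ replicates 1 or 3 or Ly6C− replicates 1 or 2 (adjusted p = 0.0603 to 0.116). It also ended with no mean-variance trend (limma adjusted p = 0.086) and with library totals (0.0577). Jak2 and Tyk2 had log2 fold changes of 0.00 and −0.02 and did not pass.

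Of 8 factors and cofactors tested outside the list 4 fell and none rose (50% called, against 17.1% of all genes). Those that fell included Irf5, an activator of inflammatory genes, Batf2 and the IRF2 corepressor gene Irf2bp2, at log2 fold changes of −1.18, −1.21 and −0.87 (adjusted p = 0.0281, 0.0459 and 0.0476 by limma). The calls of these named genes ended when a library was left out, in each of the 6 omissions for Irf5 (limma adjusted p = 0.0559 to 0.0901). The call of Batf2 ended in 5 omissions (0.0830 to 0.156) and that of Irf2bp2 in 4 (0.0957 to 0.140). Irf5, Batf2 and Irf2bp2 did not pass with DESeq2 (adjusted p = 0.106, 0.0658 and 0.0514).

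Of 9 tested genes listed as negative regulators, the interferon-stimulated gene Isg20 among them, 2 rose and none fell (22.2% called, against 17.1% of all genes). Socs3, a feedback inhibitor of JAK kinases, averaged 1733 ± 131 in Ly6C+ and 631 ± 32.7 in Ly6C− pCAFs (adjusted p = 5.78e-05 by limma). Ptpn2, a phosphatase that acts on JAK1, had 78.7, 87.2 and 112 normalised counts in Ly6C+ libraries and 59.1, 45.1 and 36.7 in Ly6C− libraries (log2 fold change 0.98, SE 0.23, adjusted p = 0.0142 by limma, or 0.0570 without Ly6C− replicate 2 and 0.0597 without Ly6C+ replicate 3). Of 10 sensors and adaptors 1 rose and none fell (10% called, against 17.1% of all genes). It was Myd88, the adaptor of Toll-like and IL-1 receptors, at 191 ± 1.36 in Ly6C+ against 108 ± 6.87 in Ly6C− pCAFs (log2 fold change 0.82, SE 0.16, adjusted p = 0.00478 by limma).

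Further antiviral and inducible genes went both ways, with 4 of 49 higher, 6 lower and 39 that did not pass. The share called was 20.4%, against 17.1% of all genes. Oas2, an oligoadenylate synthetase, had 131, 135 and 150 normalised counts in Ly6C+ libraries and 61.0, 55.3 and 56.4 in Ly6C− libraries (log2 fold change 1.25, SE 0.18, adjusted p = 0.000522 by limma). Of the Schlafen genes, Slfn5 was higher, at 28.3 ± 11.1 in Ly6C+ against 3.67 ± 1.58 in Ly6C− pCAFs, and Slfn2 was lower, at 46.2 ± 13.6 in Ly6C+ against 131 ± 52.2 in Ly6C− pCAFs (adjusted p = 0.000999 and 0.00747 by limma). Bcl3, an atypical inhibitor of NF-kB, was higher at a log2 fold change of 0.75 (adjusted p = 0.00775 by limma).

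Beside Slfn2 and Ifit3b, the genes that fell were Cd274, which encodes PD-L1, Parp10, and the chemokine genes Cxcl9 and Cxcl10. Cxcl9, induced by interferon gamma, had 47.6, 43.6 and 8.50 normalised counts in Ly6C+ libraries and 158, 97.0 and 65.6 in Ly6C− libraries (limma adjusted p = 0.0366), and Cxcl10 had 144, 177 and 104 in Ly6C+ libraries and 382, 181 and 264 in Ly6C− libraries (0.0421). Both calls ended when single libraries were left out (adjusted p up to 0.0999 for Cxcl9 and 0.141 for Cxcl10). So did those of Cd274, without Ly6C+ replicate 3 or Ly6C− replicates 1 or 2 (adjusted p = 0.0556 to 0.0681 by limma), and of Parp10, without Ly6C+ replicates 2 or 3 or Ly6C− replicates 1 or 2 (0.0936 to 0.149). With DESeq2, Parp10 and Cxcl9 did not pass either (adjusted p = 0.0813 and 0.125), nor did Cxcl9 with a robust prior (0.124 by limma). With no mean-variance trend, Parp10, Cxcl9 and Cxcl10 did not pass (limma adjusted p = 0.0809, 0.102 and 0.114). After thinning to equal reads, Cd274 and Parp10 did not pass (limma adjusted p = 0.0938 and 0.0525). Cd274, Parp10, Cxcl9, Cxcl10 and Irgm2 were named after their values were seen.

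Markers of other cell types were present, and some moved with the groups. Of 6 epithelial and tumour cell markers 3 were tested and 1, Krt14, was lower. The summed level of the 6 was 7.93 to 39.4 in Ly6C+ and 65.6 to 299 in Ly6C− libraries. Epcam was at 0 in Ly6C+ replicates 2 and 3 and in Ly6C− replicate 2, and at most 2.95. Of 12 macrophage markers present, 8 were tested and 1, Lyz2, was higher, with sums of 157 to 390 in Ly6C+ and 65.6 to 219 in Ly6C− libraries. The 5 granulocyte markers summed to 3.86 to 698 in Ly6C+ libraries, the highest in replicate 1, and were at 0 in all Ly6C− libraries. The 4 pan-leukocyte markers summed to 18.5 to 60.4 in Ly6C+ and 3.40 to 29.5 in Ly6C− libraries, with Ptprc, which encodes CD45, at 0 in Ly6C− libraries. Endothelial markers summed to 19.5 to 37.2 in Ly6C+ and 15.7 to 103 in Ly6C− libraries, with Tek higher and Kdr lower in Ly6C+ pCAFs. Pericyte markers summed to 170 to 231 in Ly6C+ and 413 to 515 in Ly6C− libraries, and of 5 tested 1, Kcnj8, was higher and 3 were lower. These were Cspg4, at 25.0 to 28.6 in Ly6C+ and 324 to 400 in Ly6C− libraries, Notch3, and Myh11, which had 1 read in Ly6C+ and 75 in Ly6C− libraries. Cd3e, the T and NK marker in the table, was higher, at 88.7 to 165 in Ly6C+ and 10.5 to 19.7 in Ly6C− libraries (adjusted p = 6.45e-05 by limma). The B cell marker Cd79b was at most 8.86, and the dendritic markers Zbtb46 and Ccr7 summed to at most 10.5. The part of these cells in the interferon results was not tested.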

How the data were processed

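The authors deposited 1 table of normalised counts, signal values reads scaled library by library. The submitters' processing notes name HTSeq, STAR 2.4.2a and bcl2fastq, and the build mm10. How genes were annotated and filtered, and whether strand or molecular tags were used, is not given in the sources used here. All values of a library were whole multiples of 1 step (100% within a tolerance of 0.001), so whole reads were recovered, and the edgeR and DESeq2 alternatives were run on them. On these reads edgeR called 1721 genes.

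Values were tested with limma 3.58.1 (R 4.3.3, trended prior, no block) on log2(value + 1) for genes with a mean of at least 5. The alternatives were another pseudocount (0.5 or 5), filter, scaling or prior, the replicate number as a block, thinning to 1176909 reads, edgeR 4.0.16 (TMM), DESeq2 1.42.0 and each library left out. The pipeline was checked on simulated counts. All members were accounted for: those past the test are named, and values per library are given for up to 5 per role and for the receptors. Other genes are the 4 with the smallest p per list that passed, with Jak1, Jak2 and Tyk2. Some genes of these lists are counted but not reported here. Further values complete the account. Members and lists were chosen with earlier results of these data known. Positions and overlaps came from GENCODE M21 (mm10), where 7 members overlap a gene on the same strand and 9 a gene on the other strand, and promoters from RefSeq (GRCm38.p6).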

Additional observations from a re-analysis of the deposited data

How the results depend on the processing

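Of the 35 tested members, 26 kept their call in every alternative that tested them, and no call changed sign. Those that lost a call were Ifngr1, Ifit3 and Irgm1, and those that gained 1 in some setting were Ifnar2, Irf9, Ifit2, Parp14, Gbp3 and Zbp1. The members called, 2 higher and 4 lower, were 1 higher with DESeq2 (5 lower), with no mean-variance trend (3 lower) and after thinning (4 lower). With each library scaled to its total, 1 was higher and 8 were lower, a scaling that moved the median of all genes by −0.19 and gave 1211 lower calls among all genes against 739, with 37.4% of 1936 calls higher against 55.1% of 1647. The member median was −0.40 in that scaling. With no filter 1 more member, Rsad2, was lower. When 1 library at a time was left out, 3 to 7 members passed, 1 to 2 higher and 2 to 5 lower, the member median ran from −0.45 to −0.13, and 469 to 741 of all genes were lower. The cause of these changes was not tested.

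With the replicate number as a block, 10 members passed, 4 higher and 6 lower, and 2088 of all genes (edgeR with the block gave 3 higher and 6 lower). The numbers share no stated source. Deviations of same-numbered libraries correlated at 0.129, 0.0518 and 0.167, and every library correlated best with its own number, a hint from the data and not from the design. Genes with few reads, such as Rsad2, Oas1a, Ifih1 and Mx1, limit what these depths can show.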
